A study of Mus musculus with 18 samples.

Results

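Messenger RNA of mouse tongue with an activating PIK3CA allele was compared with that of wild type esophagus, 9 of the 18 libraries of the study. The first group, named E20 by the submitters, holds 6 libraries of tongue with the PIK3CA allele H1047R behind a stop element between loxP sites (LSL), which Cre recombinase removes. The second group, WT, holds 3 libraries of wild type esophagus. The labels call both tissues squamous epithelium. Tissue and allele differ together, so a difference between tongue and esophagus and an effect of the allele cannot be told apart. The genotype given for E20 names no Cre, whereas that of the double mutants names K14-Cre, driven by the keratin 14 promoter of basal keratinocytes. The study's title names 4NQO, a carcinogen given to mice to start oral tumours, but the labels do not say which libraries came from treated mice or from tumours. They give neither age nor sex. Separate animals are not stated for the libraries of either group, so the p-values below speak for the spread among libraries, and that spread may be technical.

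A gene was taken to move the same way in both runs of E20 libraries, 1 to 3 and 4 to 6, when limma called it in E20 against WT at an adjusted p under 0.05 and all 6 E20 libraries lay above, or all 6 below, all 3 WT libraries. Of 14405 genes tested, 9164 (63.6%) met this rule. Levels are in CPM and are based on a scaled library total. Differences are on a log2 scale, E20 minus WT, with 1 read added to each value, and adjusted p-values are those of limma over all genes tested.

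Class I PI3-kinases turn receptor signals into the membrane lipid PIP3, which recruits the kinase AKT. AKT holds FOXO transcription factors in the cytoplasm and turns on growth through mTOR, and lipid phosphatases reverse the first step. PIK3CA encodes the catalytic subunit p110alpha, and H1047R is a frequent activating change of it in head and neck cancer. In a stratified squamous epithelium, basal cells carry keratins 5 and 14 and the transcription factor p63, and the fibroblasts, muscle and vessels beneath it are separate tissues.

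The 9 libraries held 14710482 to 17836826 reads. The E20 libraries fell into 2 runs: Across genes, the 6 pairs inside a run had a Pearson's r of 0.992 to 0.993, the 9 pairs between runs 0.967 to 0.969, the 18 pairs of E20 with WT 0.906 to 0.913 and the 3 WT pairs 0.992. What sets the runs apart is not given in the labels. When each run of 3 libraries was averaged to 1 value, which leaves 2 E20 values and 1 WT value, limma called 8 genes higher and 0 lower, and 2069 genes had an unadjusted p under 0.05, so nearly all calls below rest on the libraries of a run counting as separate. The 8 genes included Pdpn, Psmb8, Tap1, Angpt1, Bhlhb9, Auts2 and Armcx4. The averaged fit also held 1 p53 value and 2 double mutant values, so its spread came from the double mutant runs as well as the E20 runs. The part of the double mutant runs in the loss of calls was not tested.

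The labelled squamous epithelium was checked first: some of its defining markers were near 0 and others were read. The basal and squamous list summed to 418 to 543 CPM in E20 libraries and 1099 to 1212 CPM in WT libraries. Krt5, a basal keratin, was at 0 to 7.48 CPM in E20 libraries, with a median of 2.52, against 0, 0.115 and 0.12 CPM in WT libraries. Epcam, a surface protein of epithelial cells, did not exceed 0.0681 CPM in E20 and 0.241 CPM in WT, and Krt4, a keratin of differentiated tongue and esophagus, had 0 reads in all 9 libraries. Krt14 averaged 66.5 CPM in E20 libraries 1 to 3, 0.0222 CPM in E20 libraries 4 to 6 and 13.4 CPM in WT, so its 2 runs lay on opposite sides of WT. Trp63, which encodes p63, did likewise at 15.7, 3.29 and 6.09 CPM. Krt5 (log2 difference 2.58, SE 1.85, adjusted p = 0.24), Krt14 (-2.50, SE 2.77, adjusted p = 0.45) and Trp63 (0.24, SE 0.65, adjusted p = 0.75) were not called. Ptprc, a marker of leukocytes, did not exceed 0.0681 CPM in E20 and 0.172 CPM in WT. Cdh5, a marker of vessels, did not exceed 0.0682 CPM in E20 and 0.0575 CPM in WT. The endothelium list of 11 genes, though, summed to 4.29 to 5.75 CPM in E20 and 36.5 to 39.6 CPM in WT. Of its 3 genes tested 1 fell and 0 rose. The leukocyte list is given below.

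In all, limma called 9452 genes (65.6%), 5045 higher in E20 (35%) and 4407 lower (30.6%). Without overlap in either run of E20 libraries there were 4872 higher (33.8%) and 4292 lower (29.8%), and at least 2-fold 2031 higher (14.1%) and 2065 lower (14.3%). These shares are the background for the gene lists below. With libraries scaled by their read totals, which lowers the median of all genes by 0.17 log2 units, the calls split into 4045 higher (41.9%) and 5606 lower. Among the genes that met the rule, 313 were higher and 190 lower at least 32-fold. The genes at least 4-fold higher took 9.37% of E20 reads and 0.859% of WT reads, and those at least 4-fold lower took 0.562% of E20 reads and 4.46% of WT reads. The 2 runs of E20 libraries differed at least 2-fold from each other in 1200 of the 9164 genes (13.1%).

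**Figure D1:**
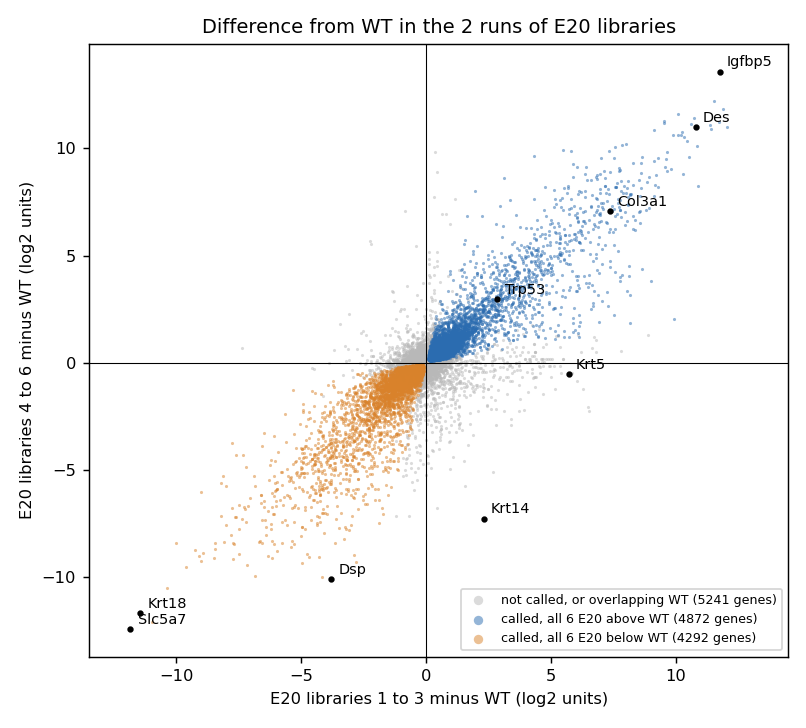
Each point is 1 of the genes tested, placed by the mean log2 difference of E20 libraries 1 to 3 from WT (x) and of E20 libraries 4 to 6 from WT (y), and both axes use the same 3 WT libraries. The 4872 genes called higher (blue) and the 4292 called lower (orange) lie in the upper right and lower left, and Krt14 lies in the lower right.

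The largest differences were in genes with many reads in one tissue and hardly any in the other. Igfbp5, which encodes a secreted binding protein of insulin-like growth factors, was at 793 to 3091 CPM in E20 libraries, median 1838, against 0.186, 0.172 and 0.18 CPM in WT libraries (log2 difference 12.66, SE 0.53, adjusted p = 6.7e-08). Lrrc17 was at 88.9 to 138 CPM in E20 libraries, median 114, and had 0 reads in WT, at least 1889-fold higher against a floor of 3 reads over the WT group (adjusted p = 1.7e-10). The groups lay far apart for both genes.

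Grb10, an adaptor that restrains the insulin receptor, was at 272 to 290 CPM in E20 libraries against 0.0621, 0 and 0 CPM in WT libraries. Pdpn, podoplanin of stromal and basal cells, was at 309 to 641 CPM in E20 libraries against at most 0.186 CPM in WT (log2 difference 11.52, SE 0.36, adjusted p = 1.2e-08). Pdpn held its call, at an adjusted p of 0.0495, with each run averaged to 1 value. Tmem47, Srpx2, Ms4a4d and Trim30a were also among the largest increases, together with Nid2, Des, Iigp1 and Xist, described below. None of the 6 E20 libraries came near WT for any of these genes.

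**Figure D2:**
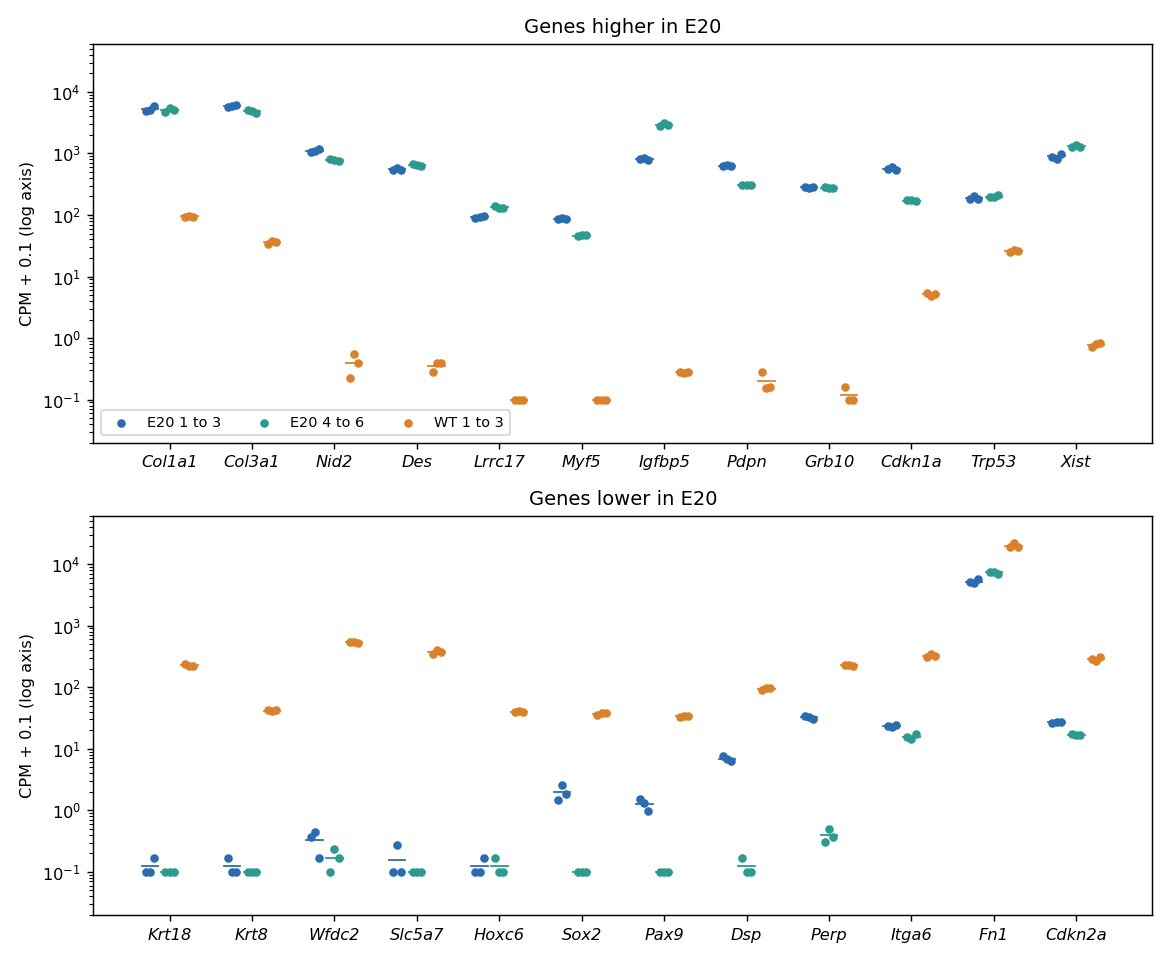
CPM plus 0.1 on a log axis, 1 point per library, for 12 genes higher (top) and 12 lower (bottom) in E20, with E20 libraries 1 to 3 in blue, E20 libraries 4 to 6 in teal and WT in orange. Bars are means of 3 libraries, and for each of the 24 genes the E20 points of both runs lie on the same side of the WT points.

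In the collagen list 16 of 22 genes tested rose and 2 fell, 13 and 2 of them at least 2-fold, with a median difference of 2.63 against 0.038 for all genes tested. Col1a1, a chain of type I collagen, was at 4642 to 5831 CPM in E20 libraries, median 5006, against 93.3, 97.9 and 92.1 CPM in WT libraries (log2 difference 5.76, SE 0.08, adjusted p = 7.8e-11). Col3a1, of the fibrillar collagen of soft tissue, was at 4542 to 6128 CPM in E20, median 5425, against 33.8, 37.8 and 36.1 CPM in WT (7.22, SE 0.10, adjusted p = 1.1e-10). Col1a2 was less far apart, at 6079 to 9203 CPM in E20 against 1308 to 1420 CPM in WT, and its call was lost in the fit over all 18 libraries (adjusted p = 0.43). Col6a3 averaged 250 CPM in E20 libraries 1 to 3 and 1483 CPM in E20 libraries 4 to 6, and 1.02 to 1.90 CPM in WT. The 2 of the list that fell were Col7a1, the anchoring fibril collagen of squamous epithelium (-3.79, SE 0.08, adjusted p = 1.4e-09), and Col4a6 (-1.58, SE 0.61, adjusted p = 0.046), whose call was lost without any 1 of the 3 WT libraries, without E20 library 2, 5 or 6, or with no filter on low genes (adjusted p = 0.055 to 0.12). Over all 34 collagen chains tested, counted after their values had been seen, 19 rose and 10 fell. Among those outside the list, Col17a1, a hemidesmosome collagen, fell by 6.05, the basement membrane chain Col4a3 by 4.23 and the cartilage chain Col11a2 by 2.60 log2 units.

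Basement membrane genes split. Nid2, a nidogen that links laminin to type IV collagen, was at 752 to 1161 CPM in E20 libraries against 0.124, 0.46 and 0.301 CPM in WT libraries (11.48, SE 0.29, adjusted p = 3.1e-09), and Nid1 was at 643 to 1322 CPM in E20 against 1.30, 1.67 and 1.86 CPM in WT. Lama1, a laminin chain, was at 53 to 100 CPM in E20 and had 0 reads in WT, at least 1258-fold higher. Sparc and Bgn, which bind collagen, rose by 3.08 and 3.14 log2 units. In contrast Fn1, fibronectin, was at 4868 to 7550 CPM in E20 libraries, median 6325, against 19013, 21657 and 19079 CPM in WT libraries (-1.69, SE 0.17, adjusted p = 2.5e-05), and the matricellular genes Thbs1 (-2.13), Thbs2 (-4.77) and Tnc (-2.09) fell as well. Of 33 genes in this list 18 rose and 7 fell.

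Of 26 metalloproteinase and inhibitor genes 15 rose and 3 fell. Mmp2, a gelatinase of stromal cells, was at 750 to 887 CPM in E20 libraries against 2.67, 2.82 and 3.07 CPM in WT libraries (8.10, SE 0.07, adjusted p = 5.8e-12). Timp3, an inhibitor of these enzymes bound to matrix, fell to 99.0 to 501 CPM in E20, against 1510 to 1609 CPM in WT (-2.80, SE 0.65, adjusted p = 0.0042). In the fibroblast marker list 8 of 11 tested rose and 1, Twist2, fell. The 16 genes summed to 21954 to 24971 CPM in E20 libraries against 6206 to 6507 CPM in WT libraries. The list holds Col1a1, Col1a2 and Col3a1, so its rise is not separate from that of the collagens. Vim, another of its markers, was not called, and its difference was 0.072 without E20 libraries 4 to 6 and -0.71 without E20 libraries 1 to 3. Lum, a fibroblast proteoglycan, did not exceed 0.2 CPM in E20 and had 0 reads in WT. The part of fibroblasts in the rise of the matrix genes was not tested. In bulk RNA, fewer cells of a type and less RNA per cell cannot be told apart.

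In the list of cadherins and regulators of epithelial to mesenchymal transition 11 of 13 genes rose and 1, Cdh13, fell. The list does not hold Cdh1, Twist2 or Cdh3, a further cadherin, which also fell (-3.87, -2.67 and -5.93 log2 units). Cdh3 was chosen for naming after its values had been seen. Prrx1, a homeobox gene of limb and face mesenchyme, was at 456 to 539 CPM in E20 libraries against 45.0, 48.8 and 47.0 CPM in WT libraries (3.40, SE 0.07, adjusted p = 1.1e-09). Cdh11, a cadherin of mesenchyme, was at 622 to 898 CPM in E20 against 1.68 to 2.83 CPM in WT. Of 7 genes in the list of mesothelium and mesenchyme of internal organs 4 rose and 2 fell, and the list of 14 summed to 141 to 207 CPM in E20 and 478 to 502 CPM in WT.

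Of 18 skeletal muscle genes tested 10 rose and 4 fell, with a median difference of 1.87. Des, the muscle intermediate filament desmin, was at 533 to 662 CPM in E20 libraries, median 601, against 0.186, 0.287 and 0.301 CPM in WT libraries (10.89, SE 0.12, adjusted p = 2.5e-11). Pax7, the factor of muscle stem cells, was at 34.0 to 62.9 CPM in E20 and had 1 read in the WT group. Myf5, the myogenic factor of early myoblasts, was at 45.2 to 90.2 CPM in E20 and had 0 reads in WT, at least 1120-fold higher. Fgfr4, a receptor read in myoblasts, was at 74.6 to 103 CPM in E20 against 0.115 to 0.18 CPM in WT (8.79, SE 0.14, adjusted p = 2e-10). Yet Myod1 and Myog, which drive differentiation of myoblasts, did not exceed 0.203 and 0.467 CPM in E20 and had 0 reads in WT. The 4 that fell were Tnnt2 (-5.40), Tnnc2 (-2.08), Ttn (-1.97) and Ryr1 (-0.92), which are contractile or channel genes. The call of Ttn was lost in the fit over all 18 libraries (adjusted p = 0.082). Other muscle genes of these kinds moved in both directions: Actn3, Cacng1 and Chrna1 rose (3.35, 5.07 and 6.18) and Clcn1 fell (-1.86). Those were chosen for naming after their values had been seen. The list of 27 genes summed to 199 to 477 CPM in E20 libraries and 47.5 to 50.8 CPM in WT libraries.

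Smooth muscle genes rose in 9 of 15 cases and fell in 0. Actg2, a smooth muscle actin, was at 200 to 668 CPM in E20 libraries against 3.85, 5.46 and 4.09 CPM in WT libraries (6.33, SE 0.48, adjusted p = 3.2e-06). Myl9 was at 205 to 576 CPM in E20 against 13.4 to 15.8 CPM in WT. The best known marker, Acta2, was not called: it averaged 3595 CPM in E20 libraries 1 to 3, 909 CPM in E20 libraries 4 to 6 and 869 to 932 CPM in WT libraries (1.02, SE 0.57, adjusted p = 0.14). Cnn1, another smooth muscle marker, was not called either (-1.65, SE 1.59, adjusted p = 0.38). It averaged 13.2 CPM in E20 libraries 1 to 3, 0.247 CPM in E20 libraries 4 to 6 and 6.2 CPM in WT, so its runs lay on opposite sides of WT.

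Several genes read in WT had next to no reads in E20. Krt18 and Krt8, the keratin pair of simple epithelia, had 1 read each over the 6 E20 libraries, against 237, 224 and 222 CPM for Krt18 and 42.0, 40.6 and 41.9 CPM for Krt8 in WT libraries (adjusted p = 2.4e-09 and 1.5e-08). Wfdc2, a secreted protease inhibitor of glandular epithelia, was at 0 to 0.351 CPM in E20 against 538, 546 and 530 CPM in WT (-11.54, SE 0.52, adjusted p = 1e-07). Slc5a7, the choline transporter known from cholinergic nerve endings, had 3 reads over the 6 E20 libraries and 18920 over the 3 WT libraries. In each of these genes the highest E20 library lay below 1 CPM and the lowest WT library above 40 CPM. Pax2, a regulator of kidney, and Cck, a gut hormone, had 0 reads in E20 and were at least 1069-fold and 1533-fold lower against the same floor over the E20 group. Lepr, the leptin receptor, fell to 0.0681 to 0.267 CPM in E20, against 104 to 124 CPM in WT, and Padi4 fell by 8.44 log2 units.

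Of 18 basal and squamous genes 10 fell and 1, Tfap2c, rose. Sox2, a foregut and squamous stem cell factor, was at 0 to 2.45 CPM in E20 libraries, median 0.682, against 35.4, 37.4 and 38.1 CPM in WT libraries (-6.70, SE 1.39, adjusted p = 0.0022). Pax9, a regulator of esophageal and oral epithelium, was at 0 to 1.43 CPM in E20 against 32.6 to 34.6 CPM in WT (-6.87, SE 1.21, adjusted p = 0.00082). Both were at 0 in E20 libraries 4 to 6. Tfap2c went the other way, at 8.17 to 34.1 CPM in E20 against 1 read in the WT group.

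Of 18 genes in the epithelial junction list 13 fell and 1, Spint1, rose, with a median of -2.25 in E20 libraries 1 to 3 and -3.60 in E20 libraries 4 to 6. Dsp, desmoplakin of desmosomes, averaged 6.79 CPM in E20 libraries 1 to 3, 0.0226 CPM in E20 libraries 4 to 6 and 90.8 to 97.5 CPM in WT libraries (-6.96, SE 1.83, adjusted p = 0.008). Perp, a desmosome gene that p53 activates, averaged 32.7 and 0.293 CPM in the 2 runs of E20 and 218 to 232 CPM in WT (-6.06, SE 1.89, adjusted p = 0.018), and its call was lost without any 1 of the WT libraries (adjusted p = 0.053 to 0.054). Cdh1, E-cadherin, did not exceed 0.273 CPM in E20 against 1.44 to 1.68 CPM in WT (-3.87, SE 0.55, adjusted p = 0.00021). Not all junction genes differed between the runs: Cldn4, a claudin of tight junctions, lay 4.09 and 4.36 log2 units below WT in them. The call of Spint1 was lost in the fit over all 18 libraries (adjusted p = 0.12). The list of 31 genes summed to 78.0 to 156 CPM in E20 and 653 to 672 CPM in WT.

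Some genes of body position differed between the groups, in both directions. Hox genes are arranged in clusters whose members mark levels of the body axis. The HoxC genes Hoxc4, Hoxc5, Hoxc6 and Hoxc8 on chromosome 15 had 6, 2, 2 and 1 reads over the 6 E20 libraries. In WT libraries Hoxc4 was at 67.1, 68.2 and 64.7 CPM, Hoxc5 at 35.8 to 39.0 CPM, Hoxc6 at 39.2 to 40.9 CPM and Hoxc8 at 15.8 to 17.6 CPM. These 4 genes, with Hoxc9, lie between positions 102967443 and 103036852 of GRCm38, and all 5 were called, Hoxc9 being named after its values had been seen. Hoxd8 averaged 1.57 CPM in E20 libraries 1 to 3 and 17.8 CPM in E20 libraries 4 to 6 and had 0 reads in WT, at least 159-fold higher, and Hoxa7 averaged 1.44 and 14.3 CPM against at most 0.186 CPM in WT. The calls of both rested on the weighting, since voom gave adjusted p = 0.083 for Hoxd8 and 0.14 for Hoxa7. Of the HoxB genes, Hoxb5, Hoxb6 and Hoxb8 rose by 2.65, 2.81 and 1.56 log2 units, Hoxb6 losing its call with voom (adjusted p = 0.074), and Hoxb2, Hoxb3 and Hoxb4 were not called. Over the 25 Hox genes tested 7 rose and 6 fell, both under the shares of all genes tested, 33.8% and 29.8%.

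Factors of the oral field rose in 10 of 21 cases and fell in 7. Nkx2-5, a factor of heart and pharyngeal muscle, was at 19.9 to 30.8 CPM in E20 and had 0 reads in WT, at least 402-fold higher. Pitx1, an oral ectoderm and hindlimb factor, fell to 0.0677 to 9.70 CPM in E20, against 161, 145 and 177 CPM in WT (-7.10, SE 1.68, adjusted p = 0.0046), and Isl1 fell by 4.89 log2 units. Elsewhere, Tbx4 rose at least 238-fold against 0 reads in WT and Tbx15 rose by 6.17, while Foxa1 fell by 6.89 log2 units. Foxa2, an endoderm factor, had 0 reads in E20 and was at 4.09 to 4.84 CPM in WT.

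The PI3-kinase list moved in both directions. Pik3ca itself was lower, at 76.8 to 98.9 CPM in E20 libraries, median 87.3, against 122, 128 and 128 CPM in WT libraries (-0.53, SE 0.09, adjusted p = 0.00088). Gene-level reads do not separate the alleles, so this value is no check of the label. The E20 and WT libraries did not overlap.

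Among the other catalytic subunits, Pik3cb fell to 13.5 to 15.4 CPM in E20, against 52.9 to 57.8 CPM in WT (-1.94, SE 0.07, adjusted p = 1.9e-08), and Pik3cd, the leukocyte-enriched subunit, rose to 7.62 to 17.1 CPM in E20, against 1.24 to 2.17 CPM in WT (2.85, SE 0.32, adjusted p = 4e-05). Of the regulatory subunits, Pik3r1 rose by 0.63 and Pik3r3 by 2.63 log2 units, and Pik3r5, which pairs with p110gamma, fell by 3.61. Pik3r1 was chosen for naming after its values had been seen. Pik3ip1, a transmembrane inhibitor of the kinase, fell to 5.42 to 16.8 CPM in E20, against 61.3 to 63.3 CPM in WT (-2.73, SE 0.41, adjusted p = 0.00029). In all 5 of 19 genes rose and 9 fell, 4 and 3 of them at least 2-fold, with a median of -0.52. Inpp5d, one of the 5, lost its call under most alternatives, at adjusted p = 0.052 to 0.13 over 13 of them.

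Downstream, 12 of 31 AKT and mTOR genes rose and 10 fell, but only 3 and 2 did so at least 2-fold, under the shares of all genes tested. Sesn2 and Ddit4, stress-induced inhibitors of mTORC1, rose by 2.00 (SE 0.10) and 1.24 (SE 0.08) log2 units. Sgk1, a kinase close to AKT, fell to 70.9 to 105 CPM in E20, against 267 to 274 CPM in WT (-1.66, SE 0.12, adjusted p = 2.7e-06). Foxo1 fell by 1.25 log2 units.

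FOXO targets and insulin feedback genes fell in 13 of 25 cases, 7 of them at least 2-fold, and rose in 5, with a median of -0.63. Irs2, the insulin receptor substrate that FOXO factors induce, was at 4.67 to 9.74 CPM in E20 libraries, median 7.33, against 46.4, 47.3 and 52.6 CPM in WT libraries (-2.79, SE 0.26, adjusted p = 1.3e-05). Insr and Igf1r, the receptors, fell by 0.93 and 0.99 log2 units, and Ccng2, a cyclin that FOXO factors induce, by 1.02 log2 units. These 3 were chosen for naming after their values had been seen. Trib3, a pseudokinase that binds AKT, rose to 82.6 to 128 CPM in E20, against 26.9 to 30.8 CPM in WT (1.81, SE 0.17, adjusted p = 1.5e-05), and Sod2 rose by 1.58.

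Trp53 was 2.90 log2 units higher (SE 0.06, adjusted p = 8.2e-10), at 180 to 208 CPM in E20 libraries against 24.9, 26.7 and 25.9 CPM in WT libraries. Of 37 genes in the p53 list, which counts Trp53 itself, 26 rose and 6 fell, 21 and 6 at least 2-fold, with a median of 1.14. Cdkn1a, the cell cycle inhibitor p21, was at 169 to 598 CPM in E20 libraries, median 360, against 5.40, 4.77 and 5.05 CPM in WT libraries (5.93, SE 0.50, adjusted p = 6.3e-06). Gdf15, a stress-induced secreted factor, rose by 6.71, Eda2r, a death-domain receptor, by 3.87 and Mdm2, the ligase that degrades p53, by 1.00. Perp, Ddb2 and Pmaip1 were among those that fell, and Pmaip1 lost its call without any 1 of the WT libraries (adjusted p = 0.068 to 0.075). Cdkn2a, which encodes p16 and p19ARF and was kept in the list as a regulator, fell to 16.7 to 26.9 CPM in E20, against 292, 264 and 308 CPM in WT (-3.75, SE 0.20, adjusted p = 2.8e-07). The E20 and WT libraries were apart for each gene named here.

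All 25 mitosis genes and all 25 DNA replication genes rose, 14 of each at least 2-fold, with medians of 1.12 and 1.22. Nuf2, of the kinetochore, was at 97.8 to 132 CPM in E20 libraries against 27.9, 28.4 and 25.7 CPM in WT libraries (2.05, SE 0.11, adjusted p = 2.8e-07), and Plk1, a mitotic kinase, was at 113 to 130 CPM in E20 against 36.3 to 39.4 CPM in WT. Mcm6, of the replicative helicase, was at 163 to 270 CPM in E20 against 57.2 to 59.4 CPM in WT (1.84, SE 0.18, adjusted p = 1.7e-05). In the list of the G1 cell cycle 9 of 20 genes rose and 4 fell, with a median of 0.31. Ccne1, the S phase cyclin, rose by 1.89 and the inhibitor Cdkn2c by 2.40 log2 units, but Myc fell to 55.5 to 72.9 CPM in E20, against 142 to 150 CPM in WT (-1.18, SE 0.09, adjusted p = 4.7e-06).

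Interferon-stimulated genes had the largest median of the lists with at least 10 genes tested. Type I interferon acts through a transcription factor complex that holds IRF9 and binds the interferon-stimulated response element. Of 48 genes tested 44 rose and 1, Isg20, fell, 42 and 1 at least 2-fold. The median difference was 4.80, at 4.09 in E20 libraries 1 to 3 and 5.51 in E20 libraries 4 to 6. The list summed to 4081 to 9379 CPM in E20 libraries and 819 to 858 CPM in WT libraries.

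The promoters of 4 of these genes are shown because their windows hold the core of that element, GAAA, in 2 copies spaced by 2 bases. Each runs from 250 bases before to 50 after the start of the gene, from RefSeq on GRCm38.p6, read 5′ to 3′ along the gene, with each match to GAAANNGAAA on either strand in capitals. The windows are chr4:156200769-156201068 on the minus strand for Isg15, chr5:120907476-120907775 on the minus strand for Oas1a, chr8:71537423-71537722 on the minus strand for Bst2 and chr19:34640639-34640938 on the plus strand for Ifit1.
Isg15: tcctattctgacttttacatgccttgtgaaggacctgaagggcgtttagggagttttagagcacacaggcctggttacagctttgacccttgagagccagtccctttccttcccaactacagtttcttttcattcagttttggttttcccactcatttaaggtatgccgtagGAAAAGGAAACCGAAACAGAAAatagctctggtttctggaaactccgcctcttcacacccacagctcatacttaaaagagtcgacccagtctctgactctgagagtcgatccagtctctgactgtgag
Oas1a: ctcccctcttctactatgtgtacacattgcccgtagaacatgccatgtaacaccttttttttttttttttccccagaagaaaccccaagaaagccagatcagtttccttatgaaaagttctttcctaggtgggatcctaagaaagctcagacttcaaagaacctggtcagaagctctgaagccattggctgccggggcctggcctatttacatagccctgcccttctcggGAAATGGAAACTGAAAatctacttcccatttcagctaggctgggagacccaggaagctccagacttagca
Bst2: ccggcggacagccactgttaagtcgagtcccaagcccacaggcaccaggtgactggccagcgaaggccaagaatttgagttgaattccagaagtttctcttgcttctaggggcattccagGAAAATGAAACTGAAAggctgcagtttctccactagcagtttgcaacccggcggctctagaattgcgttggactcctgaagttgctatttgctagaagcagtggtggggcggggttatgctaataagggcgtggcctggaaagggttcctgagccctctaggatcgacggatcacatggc
Ifit1: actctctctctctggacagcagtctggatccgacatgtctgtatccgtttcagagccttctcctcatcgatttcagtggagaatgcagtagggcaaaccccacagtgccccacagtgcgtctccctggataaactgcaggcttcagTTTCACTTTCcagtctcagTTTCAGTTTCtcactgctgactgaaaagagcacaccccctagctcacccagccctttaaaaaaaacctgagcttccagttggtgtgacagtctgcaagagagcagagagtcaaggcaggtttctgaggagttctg
Matches that overlap run together in capitals, and in Ifit1 they lie on the opposite strand and read TTTC. Promoter windows could be matched for 34 of the 48 genes, and 21 of the 34 (61.8%) held a match, 20 of them among the 32 that rose. Of the 10918 tested genes with a window 405 (3.71%) held one. A match is a description of these letters and not a site shown to be bound.

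Isg15, a ubiquitin-like modifier of antiviral defence, was at 174 to 320 CPM in E20 libraries, median 277, against 2.05, 1.84 and 1.32 CPM in WT libraries (7.21, SE 0.20, adjusted p = 5.8e-09). Ifit1, which binds foreign RNA ends, was at 143 to 430 CPM in E20, median 295, against 1.49, 1.72 and 2.10 CPM in WT (7.22, SE 0.37, adjusted p = 2.3e-07). Bst2, tetherin, was at 188 to 464 CPM in E20 against 13.9, 14.3 and 14 CPM in WT (4.48, SE 0.31, adjusted p = 1.7e-06). These 3 were chosen for their promoters, after their values had been seen. Oas1a, a sensor of double-stranded RNA, averaged 42.0 CPM in E20 libraries 1 to 3 and 140 CPM in E20 libraries 4 to 6 and had 1 read in WT, but it has near-identical copies, Oas1g among them, so reads may be shared between them.

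Iigp1, an immunity-related GTPase, was at 103 to 222 CPM in E20 libraries and had 1 read in the WT group. Slfn2, a regulator of immune cell quiescence, averaged 13.9 CPM in E20 libraries 1 to 3, 68.8 CPM in E20 libraries 4 to 6 and had 0 reads in WT, at least 681-fold higher, though voom did not call it (adjusted p = 0.071). Of the genes that carry the interferon signal, chosen for naming after their values had been seen, Stat2 rose by 2.42, Irf7 by 5.74 and Irf9 by 1.86 log2 units, whereas Jak2, a kinase outside the list, fell by 0.57 and Irf2, at -0.015, was not called. Oas3, at -0.51 log2 units, and Ifi27, at 0.31, were not called.

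**Figure D3:**
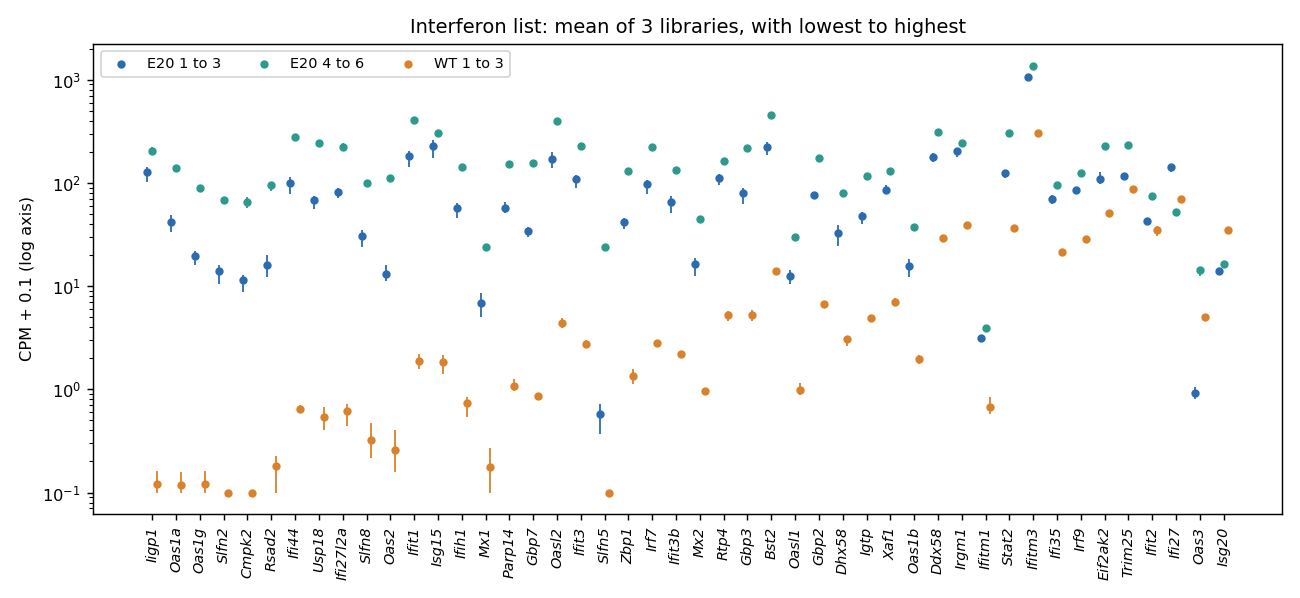
Mean CPM plus 0.1 on a log axis for interferon list genes in order of their log2 difference, with lines from the lowest to the highest of 3 libraries, E20 libraries 1 to 3 in blue, E20 libraries 4 to 6 in teal and WT in orange. In Ifi27 and Oas3 the E20 runs lie on opposite sides of WT, Isg20, at the right end, lies below it, and in each other gene plotted both E20 runs lie above it.

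Genes of MHC class I presentation rose in 16 of 19 cases and fell in 0, with a median of 1.93. The 3 that did not rise were H2-D1 (0.021), H2-Q6 and H2-Q7 (0.40). H2-T10, outside the list and named after its values had been seen, fell (-0.58). Psmb8, a subunit of the immunoproteasome, was at 32.4 to 48.0 CPM in E20 libraries and had 0 reads in WT, at least 666-fold higher. Tap1, of the transporter that loads peptides, was at 40.2 to 58.4 CPM in E20 against 0.372, 0.172 and 0.18 CPM in WT (7.39, SE 0.21, adjusted p = 6e-09), and Tap2 rose by 5.46. Psmb9 was at 5.04 to 8.86 CPM in E20 and had 2 reads in the WT group. These 4 genes are neighbours on chromosome 17, from position 34181987 to 34216321 of GRCm38. In the chemokine and cytokine list 11 of 26 genes rose and 9 fell, with a median of 0.42. Cxcl10, Ccl5, Il6 and Il33 rose by 6.97, 5.16, 5.08 and 4.15 log2 units, and Il1a and Tslp fell by 3.37 and 1.85. Cxcl10 lost its call with voom (adjusted p = 0.086). The 13 leukocyte markers summed to 5.74 to 23.1 CPM in E20 libraries and 16.6 to 19 CPM in WT libraries, with Cd3e and Adgre1 at 0 reads in all 9 libraries. Of the 4 tested, Csf1r and Lyz2 rose and Cd68 fell, Lyz2 losing its call with voom (adjusted p = 0.088) and Csf1r in the fit over all 18 libraries (adjusted p = 0.16), and the part of leukocytes in the rise of these lists was not tested.

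**Figure D4:**
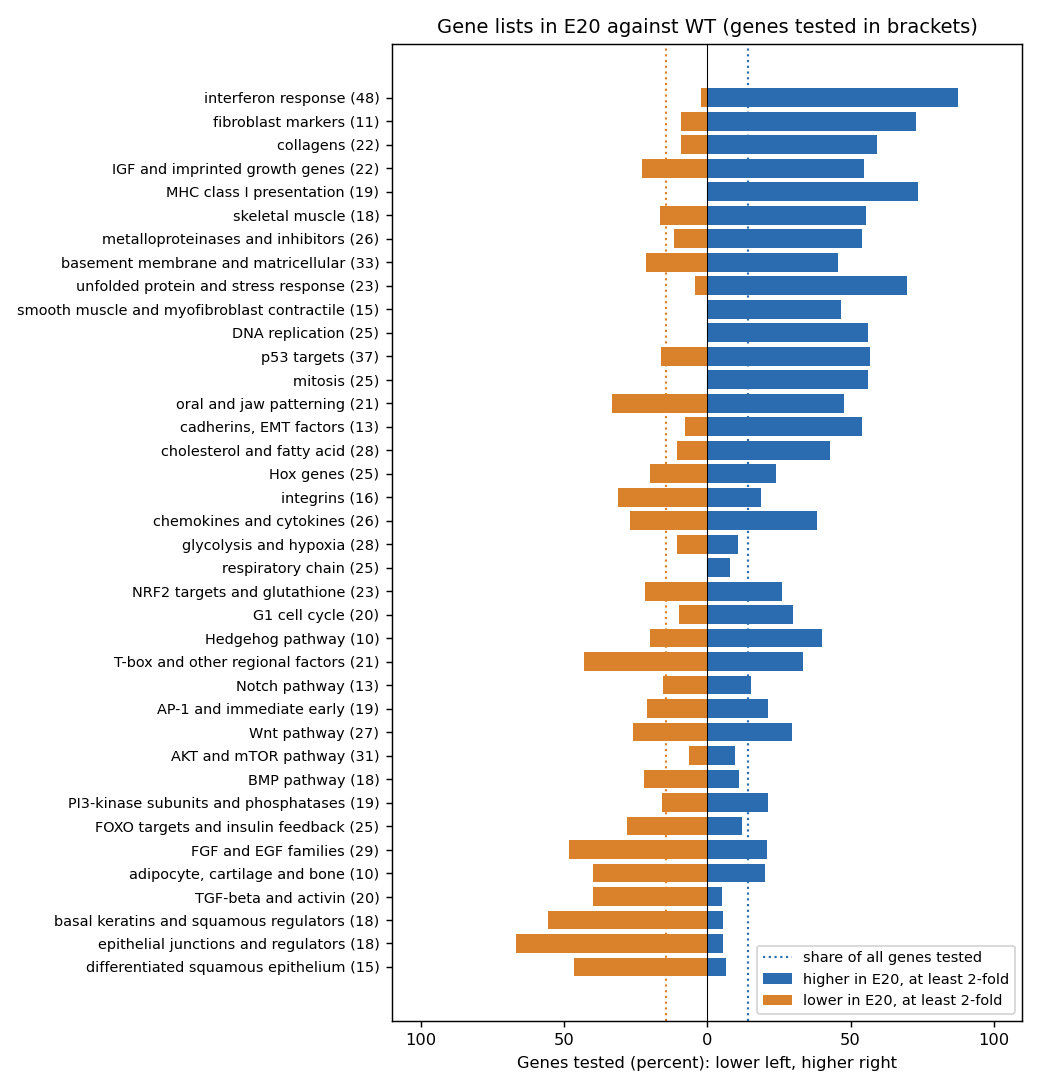
Share of the tested genes of each list that were called without overlap and at least 2-fold, higher in E20 to the right in blue and lower to the left in orange, for lists with at least 10 genes tested, ordered by median difference. Dotted lines give the shares of all genes tested, 14.1% higher and 14.3% lower, and the interferon list stands at the top while the 3 epithelial lists stand at the bottom.

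Secreted signals and their receptors moved in both directions. In the insulin-like growth factor and imprinted list 12 of 22 genes rose and 7 fell, with a median of 2.60. H19, an imprinted RNA, averaged 1966 CPM in E20 libraries 1 to 3, 607 CPM in E20 libraries 4 to 6 and 2.82 to 5.52 CPM in WT (8.09, SE 0.51, adjusted p = 1e-06), and its neighbour Igf2 averaged 1411 and 72.6 CPM in the 2 runs of E20 and 3.19 to 3.74 CPM in WT. Peg3 was at 88.1 to 173 CPM in E20 against 0.124 to 0.46 CPM in WT. Igfbp3 and Igfbp4 fell by 1.48 and 1.53 log2 units, and Igfbp4 lost its call in the fit over all 18 libraries (adjusted p = 0.27). Igf2 was chosen for naming after its values had been seen.

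Of 29 fibroblast and epidermal growth factor genes 17 fell, 14 at least 2-fold, and 9 rose, with a median of -0.79. Fgf7, a stromal factor that acts on epithelium, rose to 149 to 261 CPM in E20, against 5.65 to 7.65 CPM in WT (4.84, SE 0.22, adjusted p = 1.2e-07). The ligands Tgfa and Nrg2 fell by 3.94 and 3.40 log2 units, each with its call lost in the fit over all 18 libraries (adjusted p = 0.065 and 0.053). Among genes that the ERK pathway induces, Dusp6 was at 32 to 37.1 CPM in E20 libraries against 137, 140 and 135 CPM in WT libraries (-1.99, SE 0.06, adjusted p = 7.6e-09). Dusp4 fell by 3.11, Etv4 by 1.90, Etv5 by 1.68 and Spry2 by 1.13 log2 units, while Spry4 rose by 0.91. These 6 were chosen for naming after their values had been seen.

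The TGF-beta and activin list fell in 14 of 20 cases, 8 at least 2-fold, and rose in 3, with a median of -0.84. Tgfbr3, a co-receptor, averaged 6.19 CPM in E20 libraries 1 to 3, 40.9 CPM in E20 libraries 4 to 6 and 179 to 199 CPM in WT (-3.56, SE 0.78, adjusted p = 0.003). Acvr1b, an activin receptor, fell to 13.5 to 17.6 CPM in E20, against 93.3 to 98.1 CPM in WT (-2.61, SE 0.10, adjusted p = 4.2e-08). In the Wnt list 8 of 27 rose and 9 fell: Dkk3 and Notum, secreted antagonists, fell by 6.36 and 8.31 log2 units, Wnt7a fell at least 319-fold to 0 reads, and Rspo2, which enhances Wnt signals, was at 15.7 to 42.2 CPM in E20 with 1 read in WT. In the Notch list 3 of 13 genes rose and 4 fell, with a median of 0.10. Notch1 and Notch3 rose by 3.39 and 3.89 and the ligand Jag2 fell by 5.20. In the Hedgehog list 5 of 10 genes rose and 3 fell. Gli2, a transcription factor of the pathway, was at 17.5 to 41.7 CPM in E20 and had 0 reads in WT, at least 473-fold higher. Of its target genes, Gli1 was higher, at 0.467 to 1.09 CPM in E20 with 1 read in WT (adjusted p = 5.3e-05), whereas Hhip fell to 0 to 0.136 CPM in E20, against 118 to 127 CPM in WT, and Ptch1 fell by 1.15 log2 units.

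Of 23 unfolded protein and stress response genes 19 rose and 2 fell, with a median of 1.41. Atf5 was at 263 to 408 CPM in E20 libraries against 25.5, 27.8 and 27.4 CPM in WT libraries (3.61, SE 0.17, adjusted p = 1.3e-07), and the chaperone cofactors Manf and Sdf2l1 rose by 2.10 and 2.71 log2 units. Cholesterol and fatty acid genes rose in 16 of 28 cases and fell in 3, with a median of 0.35 in E20 libraries 1 to 3 and 1.29 in E20 libraries 4 to 6. Among them the synthesis genes Mvk, Fdps and Idi1 rose by 2.19, 1.66 and 1.61, and the exporters Abca1 and Abcg1 fell by 1.55 and 1.60. Respiratory chain genes rose in 16 of 25 cases, only 2 of them at least 2-fold. Of 28 glycolysis and hypoxia genes 6 rose and 4 fell.

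Differences from WT were not spread evenly over the chromosomes. Of 442 genes tested on chromosome 16, 244 (55.2%) were called higher without overlap and 68 (15.4%) lower, with a median difference of 0.55, against 33.8% and 29.8% of all genes tested. The median was 0.52 in E20 libraries 1 to 3 and 0.53 in E20 libraries 4 to 6. On chromosomes 2 and 3, 45.2% and 42.2% of genes were lower, with medians of -0.22 and -0.23. Chromosomes 1 and 6 differed between the runs: the median of chromosome 1 was 0.05 in E20 libraries 1 to 3 and 0.52 in E20 libraries 4 to 6, and that of chromosome 6 was -0.22 and 0.24. These are descriptions with no test, and they count genes that lie side by side.

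Xist, the RNA that coats the inactive X chromosome, was at 815 to 1350 CPM in E20 libraries against 0.621, 0.69 and 0.722 CPM in WT libraries (10.51, SE 0.17, adjusted p = 2.2e-10). The Y-linked genes Ddx3y, Kdm5d and Eif2s3y had 0 reads in all 9 libraries, so the WT libraries held next to no reads of either kind of marker. Of 467 X-linked genes tested 135 were higher and 173 lower in E20, with a median of -0.12.

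**Figure D5:**
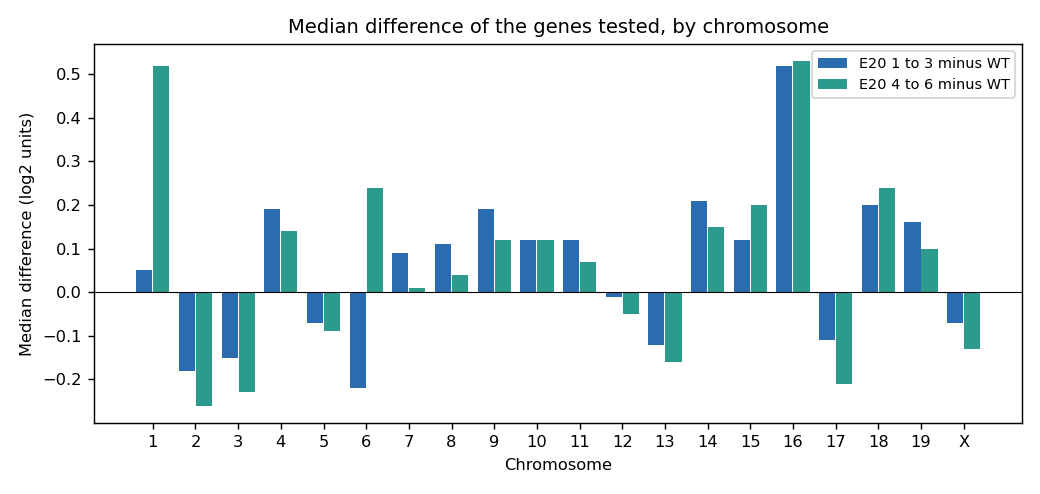
Median log2 difference from WT of the genes tested on each chromosome, for E20 libraries 1 to 3 (blue) and E20 libraries 4 to 6 (teal), with the same 3 WT libraries behind both bars. Chromosome 16 has the tallest bars of both colours together, at 0.52 and 0.53, and chromosomes 1 and 6 have bars of unequal height or sign.

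Not every large difference was shared by the runs. In 1000 of the 14405 genes tested E20 libraries 1 to 3 and 4 to 6 lay without overlap on opposite sides of WT. The first run lay above in 451 and the second run in 549, and 0 of the 1000 were called. The fit takes 1 mean over both runs and counts the gap between them as spread, so it could hardly call such genes. In 99 of the 1000 both differences were at least 2-fold. Krt6a and Krt17, keratins of activated keratinocytes, averaged 30.0 and 18.8 CPM in E20 libraries 1 to 3, 0 and 0.0222 CPM in E20 libraries 4 to 6 and 0.304 and 2.90 CPM in WT. Fgf10, a mesenchymal factor, ran the other way at 0.0909, 31.7 and 0.559 CPM. The WT libraries are shared by both runs.

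The 3 tongue libraries labelled p53, with the p53 allele R172H and without the PIK3CA allele, give levels of the same genes in another tongue genotype. Side by side, and with no test, Des was at 533 to 662 CPM in E20, 699 to 778 CPM in p53 and 0.186 to 0.301 CPM in WT. Col1a1 was at 4642 to 5831 CPM in E20, 2646 to 3065 CPM in p53 and 92.1 to 97.9 CPM in WT. Krt18 did not exceed 0.0681 CPM in E20 and 0.0652 CPM in p53, against 222 to 237 CPM in WT, and Hoxc6 did not exceed 0.0681 and 0.261 CPM, against 39.2 to 40.9 CPM. Isg15 was at 174 to 320 CPM in E20, 78.9 to 93.0 CPM in p53 and 1.32 to 2.05 CPM in WT. Lama1 was at 53 to 100 CPM in E20, 5.42 to 7.16 CPM in p53 and 0 in WT. Myod1 and Myog stood at 149 to 157 and 113 to 126 CPM in p53 while near 0 in E20 and WT.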

How the data were processed

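RNA of 18 libraries was sequenced after preparation with the TruSeq Stranded mRNA LT kit, per the labels' protocols. Per the submitters' processing notes, bcl2fastq 1.8.4, Trimmomatic and featureCounts were used with the build mm10; the sources used here do not give the aligner, the annotation or how the totals were scaled. The authors deposited log2 values for 26143 genes, which are reads plus 1, divided by a scaled total, on a log2 scale: 100% of values gave whole reads within a relative tolerance of 0.001. CPM were computed from those reads and the scaled total, which was 0.939 to 1.095 times the sum of reads. Bounds at 0 reads allow for counting error alone, because amplified reads lacking molecular identifiers need not be independent molecules.

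The 6 E20 and 3 WT libraries were fitted with limma 3.58.1 in R 4.3.3 on the log2 scale the authors deposited, using the trend of variance on mean, 7 residual degrees of freedom and Benjamini-Hochberg adjustment over 14405 genes. Genes tested had at least 0.652 CPM, 10 reads at the median depth, in at least 3 libraries and at least 15 reads in all. The fit was also tried on simulated reads that held no gap between the E20 runs, so that trial does not cover the gap seen here. A fold against 0 reads is a bound at a floor of 3 reads over the group, while a group with 1 to 3 reads gets none. Positions are from GENCODE M21 and promoters from RefSeq, on the same build.

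Members and 45 gene lists were chosen with earlier results of these data known. Genes are named by a rule that takes, among genes called without overlap, the 14 largest differences in each direction with at least 5 CPM, the 6 most read in each direction with at least 2 log2 units, up to 4 in each direction per list with at least 1 CPM, and 16 fixed genes, apart from genes said to be chosen after their values were seen. A few genes chosen by that rule were left out of the text. Ptprc, Cdh5, Myod1, Acta2, Krt6a and other markers given as checks, and the genes not called, are outside that rule. So are Hoxb5, Hoxb8, Gli1, Cldn4, Col4a3 and Col11a2, which were chosen after their values had been seen. The mitochondrially encoded list had 0 of 10 genes in the table and was not used. Alternatives were other scalings, filters and pseudocounts, voom, limma without the trend, all 18 libraries, a replicate block, run means, a 2-fold minimum, and each library or run left out.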

Additional observations from a re-analysis of the deposited data

Results flagged for a closer look

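In 10 genes 1 E20 library lay far above the other 5 by Dixon's criterion, and all 10 values are of 1 to 4 reads. By chance the criterion picks about 1 in 20 groups of continuous values. Where the other 5 libraries are at 0 any read is picked, so that rate does not hold for these genes. E20 library 1 held 0.273 CPM of Cdh1 and 0.273 CPM of Nrarp, 4 reads each, against at most 0.0681 and 0.0677 CPM in the other 5. E20 library 2 held 3 reads of Slc5a7, 0.175 CPM, against 0 in the other 5. A single read set apart E20 library 1 for Krt8 and Sprr2a1 (0.0682 CPM), E20 library 3 for Krt18 and Acan (0.0681 CPM) and E20 library 6 for Hoxc8, Fgf5 and Lin28b (0.0687 CPM). Sprr2a1 has near-identical copies, so its read is of uncertain origin.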

How the results depend on the processing

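The counts of genes called stayed within 1.5 times their values in the report under every alternative run except 2. With each run of 3 libraries averaged, limma called 8 genes higher and 0 lower, the same 8 and 0 in both runs, and 2069 genes had an unadjusted p under 0.05, against 9954 with all 9 libraries. With a minimum of 2-fold, 2064 were higher and 2082 lower, 2031 and 2065 in both runs. Leaving out each library in turn gave 4449 to 5033 higher and 3749 to 4432 lower, and 4440 to 4934 and 3745 to 4368 in both runs. The fit over all 18 libraries gave 4397 higher and 3939 lower. The averaged fit likewise took in the p53 and double mutant libraries, averaged by run.

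The deviations of same-numbered E20 and WT libraries from their group means correlated at 0.043, -0.067 and 0.004. The E20 mean was taken over both runs, so the gap between the runs enters the E20 deviations. These values therefore cannot show whether replicate numbers pair the libraries. A fit with the replicate block gave 6194 higher and 5631 lower, and it compares only E20 libraries 1 to 3 with WT, as numbers 4 to 6 have no WT partner. In that block fit, and without E20 replicates 4 to 6, Krt14 turned to 2.30 and Vim, which was not called in the report's fit, to 0.072. Without E20 replicates 1 to 3, Krt5 turned to -0.55 and Trp63 to -0.87. These turns follow from the means of the runs lying on opposite sides of WT. In the limma fits that left out 1 run, the turned values of Krt5 (adjusted p = 0.35) and Vim (adjusted p = 0.18) were not called.

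Of 292 named genes tested, 19 lost their call in the fit over all 18 libraries, 13 with voom and 6 with library totals. Leaving out each WT library in turn cost 14 calls each time, not always of the same genes. With each run averaged, nearly all named genes lost their call. The medians of the Notch and AP-1 lists, 0.10 and 0.095, turned to -0.065 and -0.073 under library totals. Depth limits genes at 0 to 3 reads, for which bounds or no fold are given.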
